A study of Astatotilapia calliptera and Pundamilia nyererei and Oreochromis niloticus with 31 samples.

Results

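LINEs other than L2 made up 42 of the 557 transposable element (TE) families in the curated annotation of Astatotilapia calliptera (AC). They were taken by name from 1 table of small RNA levels, as the families named L1, L1-Tx1, Rex-Babar, RTE-BovB, Proto2, Dong-R4 or Penelope. L1 held 16 families, Rex-Babar 15, L1-Tx1 and RTE-BovB 3 each, Dong-R4 and Penelope 2 each, and Proto2 a single family. L2 held another 28 families and is used only as a comparison, beside the 487 families that are no LINE. Among these, a number of long terminal repeat (LTR) retrotransposons have separate entries for their internal region and their LTR. Each such entry is counted as a family here. No other LINE name in the rule (R1, R2, I, Jockey, CR1, Tad1 or unclassified LINEs) occurs in the table.

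LINEs are non-LTR retrotransposons. They encode a reverse transcriptase and copy themselves through an RNA intermediate, which is reverse transcribed at the cut genomic target. L1, L1-Tx1, Rex-Babar, RTE-BovB and Proto2 elements cut DNA with an apurinic-like endonuclease, whereas Dong-R4 elements carry a restriction-like endonuclease and many of their relatives insert at set genomic sites. Tx1 elements were first found in Xenopus and Rex elements are known from teleost fish. Penelope-like elements form a separate lineage of reverse transcriptases, usually with a GIY-YIG endonuclease. In animal gonads, Piwi proteins loaded with piRNAs recognise TE transcripts and repress them, and many piRNAs are themselves made from TE sequence.

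The table covers 14 small RNA libraries of Lake Malawi cichlids, all from wild-type fish. AC, a generalist omnivore, gave 3 ovary, 4 testis and 1 muscle library. Maylandia zebra (MZ) gave 2 libraries from testes and Tropheops sp. 'mauve' (TM) gave 4, both being rock-dwelling species. AC and TM were kept in aquaria and MZ males were bought from a supplier. According to the methods, tissues of size-matched individuals served as biological replicates. Because the AC genome served as reference for all 3 species, lower levels in MZ and TM cannot be told apart from reads of these species that map less well. In whole organs, fewer germ cells and less small RNA per cell cannot be told apart either. The table holds no genes, so the tissue labels could not be checked against marker genes.

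Each value is the level of 24 to 35 nucleotide RNAs, the length range of piRNAs, assigned to a family. It is a regularised log (rlog) value on the log2 scale, so a difference of 1 is a 2-fold difference. Values are family totals that are not divided by element length or copy number, and a family with a higher value need not have more piRNAs per element. The gonad libraries had from 3335546 to 20776746 reads of this length, of which 8.37 to 33.9% were assigned to TE families. The muscle library had 1697029, of which 0.783% (13293 reads) were assigned to TE families. AC ovaries were shallower than AC testes, with 326095 to 1071949 TE reads against 3674729 or more. The methods state that some ovary samples failed quality control and were left out, most likely because of yolk. RNA quality of the ovary libraries used here was not assessed. The normalisation centres the libraries on each other, so values compare a family with the typical TE family of its library.

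2 features of the libraries touch several results. TM testes replicates 1 and 3 resembled each other more than any other pair: over the 557 families the SD of their difference was 0.051 on the log2 scale, against 0.12 to 0.18 for the other TM pairs and 0.23 to 0.27 in AC testes. This SD was under the 0.063 expected from counting alone, as estimated from approximate reads. That estimate does not allow for rlog drawing values of rare families towards their means, so the SDs are not strictly comparable. Set family by family against the counting noise, the squared difference averaged 9.34 times the expected value, or 1.63 times as judged from the median. In the other TM pairs it was 26.1 to 104 and 5.20 to 17.9 times. The values do not settle whether replicates 1 and 3 are separate samples. They were kept as 2 libraries, and results for TM are also given with the mean of both. NA-DNA-22, a DNA transposon family and no LINE, took 9.89 to 24.4% of the summed TE values in AC ovaries, 1.45 to 1.85% in AC testes and 37.6% in muscle.

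LINEs other than L2 had higher median levels than all TE families together in all tissues, and so did L2. The mean of the library medians over the 42 families was 11.79 ± 0.06 (SD, n = 3) in AC ovaries, 11.86 ± 0.04 (n = 4) in AC testes, 11.84 ± 0.05 (n = 2) in MZ testes and 11.75 ± 0.04 (n = 4) in TM testes. Over all 557 families it was 10.73, 10.79, 10.78 and 10.76. That set holds internal regions and LTRs of the same elements as separate entries, whereas each LINE family is a single entry. How far this bears on the gap between the medians was not tested. Over the 28 L2 families it was 11.75, 11.72, 11.64 and 11.62, so a high level was shared by L2. On the linear scale, the 42 families held 10.1 to 11.8% of the summed TE values in AC ovaries, 14.0 to 14.6% in AC testes, 12.6 to 13.8% in MZ testes and 13.0 to 13.6% in TM testes. The ranges of AC ovaries and AC testes did not overlap. Without NA-DNA-22 in the sum, AC ovaries had 13.1 to 13.6% and AC testes 14.2 to 14.8%, still apart but closer. In the single muscle library the median was 11.91, beside 10.57 over all families and 11.37 over L2. The share there was 14.2%, but 22.8% without NA-DNA-22, against 13.1 to 14.8% in the gonad libraries. The order of the 42 families was similar between gonad groups. Spearman's rho across families was 0.859 between the means of AC ovaries and AC testes, beside 0.954 over all families. Between AC testes and testes of TM and MZ it was 0.921 and 0.947, beside 0.975 and 0.976. The points share their annotation and normalisation. The lower rho of the 42 families does not show less similar levels, since their levels spanned a narrower range. In AC testes the SD between families was 0.74, beside 2.06 over all 557 families. Between AC testes and AC ovaries, the median absolute change was 0.17 over the 42 families, beside 0.29 over all tested families.

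**Figure D1:**
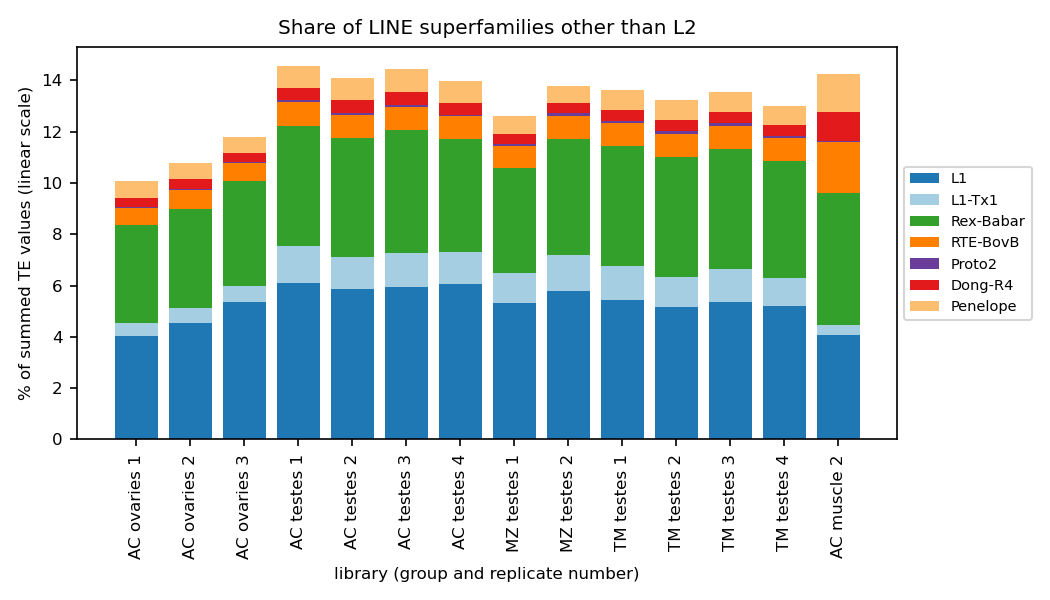
Each bar is 1 library and its height is the share (% of the summed TE values on the linear scale) of the LINE superfamilies other than L2, stacked by superfamily. AC testes reach 14.0 to 14.6% and AC ovaries 10.1 to 11.8%, and L1 with Rex-Babar form most of each bar.

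L1 and Rex-Babar made up most of this share. L1 held 4.03 to 5.35% of the TE values in AC ovaries and 5.88 to 6.08% in AC testes, and Rex-Babar held 3.80 to 4.11% and 4.39 to 4.80%. A single family, L1-3, stood out in every library. It measured 14.37, 14.36 and 14.52 in the 3 AC ovaries, 13.99, 14.05, 14.02 and 14.02 in the 4 AC testes, 13.86 and 13.72 in MZ testes and 13.93 to 13.94 in TM testes. By its mean it was the third of all 557 families in AC ovaries and the fourth in AC testes, where it took 1.28% of all TE values. The other L1 families lay far below it. L1-12 and L1-5, the next in AC testes, had means of 12.71 and 12.59 there, and L1-16, the lowest L1 family in AC testes, had 10.98.

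Among Rex-Babar families, Rex-Babar-4 was highest in all 4 gonad groups, with means of 13.25 in AC ovaries, 12.95 in AC testes, 12.91 in MZ testes and 13.11 in TM testes. Rex-Babar-11 and Rex-Babar-3 followed in AC testes at 12.67 and 12.62, and Rex-Babar-12 was lowest at 11.09. In AC testes the spread between families was narrower in Rex-Babar (SD 0.54 over 15 families) than in L1 (SD 0.72 over 16, with L1-3 among them). In MZ testes it was not, with an SD of 0.59 in Rex-Babar and 0.57 in L1. Of the small superfamilies, Penelope and Dong-R4 were fairly even. Penelope-1 and Penelope-2 averaged 12.36 and 12.53 in AC testes, and Dong-R4-1 and Dong-R4-2 averaged 11.83 and 11.32. RTE-BovB and L1-Tx1 were uneven. RTE-BovB-3 averaged 12.92 ± 0.06 (SD, n = 4) in AC testes, while RTE-BovB-1 and RTE-BovB-4 averaged 10.99 and 10.95. L1-Tx1-2 averaged 13.22, L1-Tx1-1 12.39 and L1-Tx1-4 11.06. Proto2-1 was the lowest of the 42 families in every group, at 9.32 in AC ovaries, 9.94 in AC testes, 10.37 in MZ testes, 10.31 in TM testes and 9.78 in muscle.

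**Figure D2:**
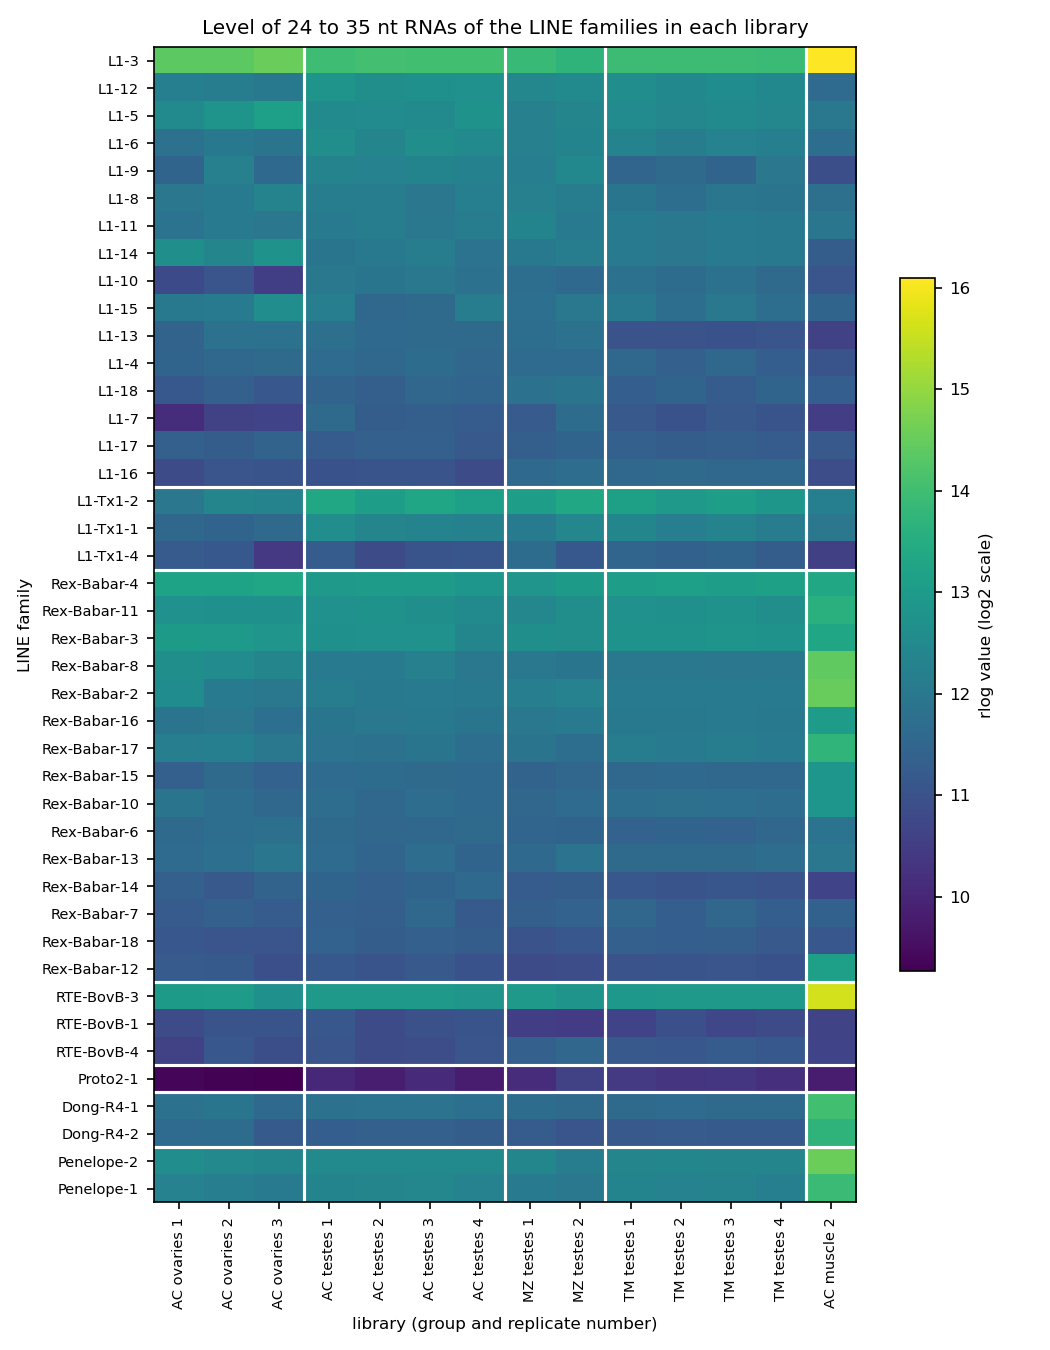
The colour gives the rlog value (log2 scale) of each of the 42 LINE families (vertical axis, grouped by superfamily and sorted by the mean in AC testes) in each of the 14 libraries (horizontal axis). L1-3 is the brightest row in every library, Proto2-1 the darkest on average, and the muscle column has brighter Rex-Babar, Dong-R4 and Penelope rows and mostly darker L1 rows.

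The comparison of AC testes with AC ovaries asks which LINE families have more RNAs of piRNA length in the male than in the female gonad. 9 of the 42 families were higher in testes, 6 were lower, and 27 did not pass the test (limma, adjusted p under 0.05 over 554 families tested). This share, 15 of 42, is not above the background, since 42.1% of all tested families passed, 20.8% higher and 21.3% lower. The median change over the 42 families was 0.02 on the log2 scale, beside −0.01 over all families. The largest rises were in L1 and L1-Tx1. Of the 6 falls, 4 were in Rex-Babar and 2 in L1, the largest being that of L1-14 at −0.60. In Rex-Babar 33.3% of the families passed in either direction and in L1 43.8%, beside the 42.1% of all families.

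In L1, 5 of 16 families were higher in testes and 2 were lower. L1-10 measured 12.01, 11.91, 11.99 and 11.84 in testes and 10.80, 11.06 and 10.52 in ovaries. All testes lay above all ovaries, and the log2 change was 1.14 ± 0.12 (SE, adjusted p = 0.000283), a 2.21-fold higher level. L1-7 measured 11.62, 11.28, 11.34 and 11.25 in testes and 10.17, 10.61 and 10.65 in ovaries, a change of 0.90 ± 0.14 (adjusted p = 0.00117). L1-6, L1-12 and L1-9 were higher by 0.62, 0.59 and 0.53. In L1-9, ovaries replicate 2, at 12.24, nearly reached the testes, which lay between 12.26 and 12.34, and its call was lost without ovaries replicate 1, without ovaries replicate 3 or without testes replicate 3.

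The 2 L1 families that were lower in testes included the most abundant one. L1-14 measured 11.92, 12.02, 12.17 and 11.85 in testes and 12.66, 12.38 and 12.75 in ovaries, a change of −0.60 ± 0.11 (adjusted p = 0.00246). L1-3 changed by −0.40 ± 0.08 (adjusted p = 0.00301), with every ovary above every testis. The remaining 9 L1 families lay between −0.36 (L1-15) and 0.24 (L1-18) and did not pass the test.

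Of the 3 L1-Tx1 families, 2 were higher in testes. L1-Tx1-2 measured 13.36, 13.10, 13.30 and 13.11 in testes and 11.97, 12.37 and 12.32 in ovaries, a change of 1.00 ± 0.12 (adjusted p = 0.000349). L1-Tx1-1 measured 12.61, 12.38, 12.31 and 12.27 in testes and 11.59, 11.46 and 11.63 in ovaries, a change of 0.83 ± 0.10 (adjusted p = 0.00038). In both families the groups were far apart compared with the spread within them. L1-Tx1-4 had a mean of 11.06 in testes and 10.93 in ovaries and overlapped, with ovaries replicate 3 lowest at 10.40. By its mean, L1-Tx1-2 was at rank 9 of 557 in AC testes and at rank 71 in AC ovaries.

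Proto2-1, the only family of its RTE-related lineage, was higher in testes as well. It measured 10.04, 9.83, 10.09 and 9.79 in testes and 9.39, 9.30 and 9.27 in ovaries, without overlap, a change of 0.62 ± 0.11 (adjusted p = 0.00214). The 3 RTE-BovB families did not pass the test, with changes of 0.00 to 0.07 and adjusted p from 0.697 to 0.993. Neither did the Dong-R4 families, at 0.05 and −0.18, nor the Penelope families, at 0.17 and 0.03.

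In Rex-Babar, 4 of 15 families were lower in testes and 1 was higher. Rex-Babar-8 measured 12.10, 12.06, 12.23 and 12.01 in testes and 12.66, 12.55 and 12.38 in ovaries, a change of −0.43 ± 0.10 (adjusted p = 0.0058). Rex-Babar-4, Rex-Babar-3 and Rex-Babar-17 fell by 0.30, 0.29 and 0.29 on the log2 scale, without overlap. Rex-Babar-18 was higher, at 11.42, 11.28, 11.36 and 11.28 in testes against 11.12, 11.06 and 11.07 in ovaries (0.25 ± 0.08, adjusted p = 0.0328). These changes are small beside those of L1-10 or L1-Tx1-2, and each of the 4 Rex-Babar calls other than Rex-Babar-8 was lost when at least 1 library was left out.

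**Figure D3:**
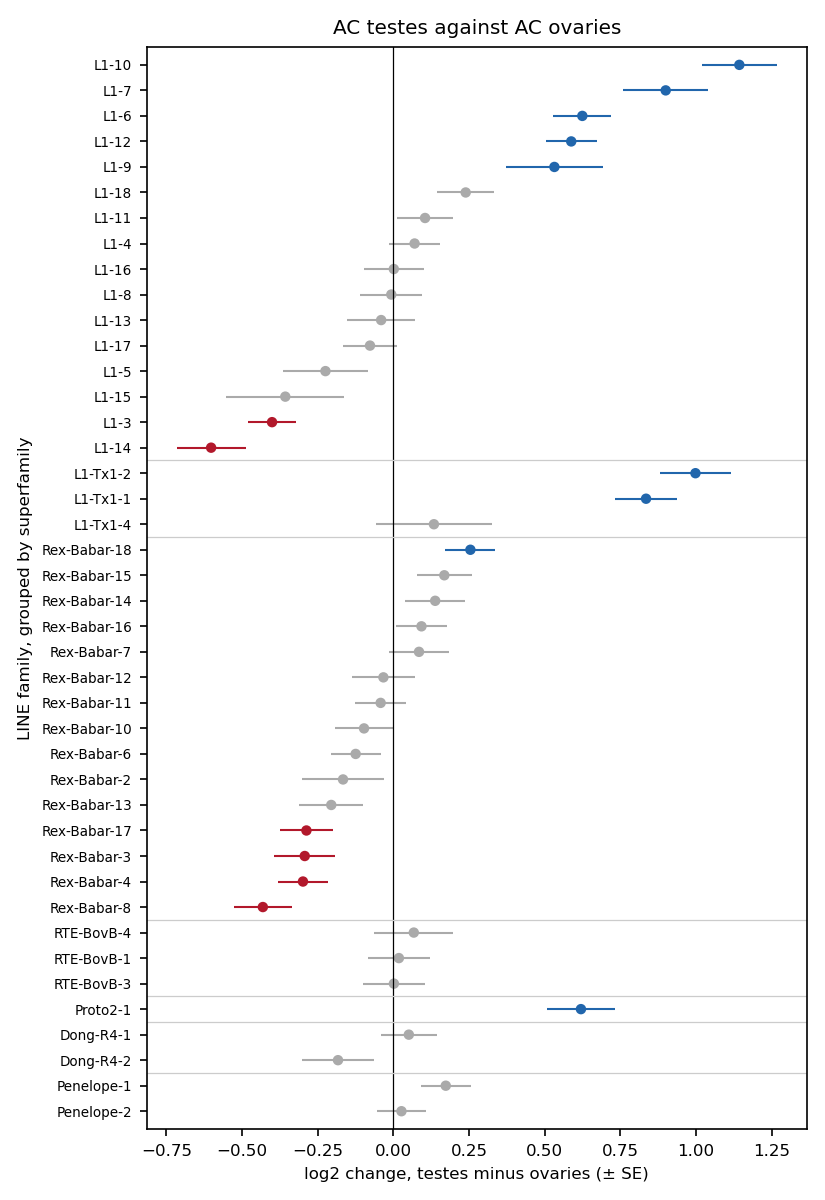
Points are the log2 change of each LINE family in AC testes (n = 4) minus AC ovaries (n = 3) with the SE as bars, grouped by superfamily; blue and red mark families higher and lower in testes at an adjusted p under 0.05, grey the others. L1-10 at 1.14, L1-Tx1-2 at 1.00 and L1-7 at 0.90 lie farthest to the right, and L1-14 at −0.60 farthest to the left.

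The direction of the falls depends on what the levels are set against. When the values were scaled to all 24 to 35 nucleotide reads, the median of all families rose by 1.35 in testes, and 28 of the 42 families were called higher and none lower, beside 54.9 and 0.181% of all tested families. Scaled to the sum of the TE values, the median of all families rose by 0.37, and 29 were called higher and none lower, beside 48.2 and 5.05%. Without NA-DNA-22 in that sum, a scaling added after seeing the data, 12 were higher and 3 lower, beside 27.6 and 15.7%. L1-10, L1-7, L1-6, L1-12, L1-9, L1-Tx1-1, L1-Tx1-2, Proto2-1 and Rex-Babar-18 were called higher under all 3 scalings, with all libraries in the fit. The 6 falls are falls relative to the typical TE family. TE reads were 8.37 to 32.1% of the 24 to 35 nucleotide reads in ovaries and 32.3 to 33.5% in testes. The part of this difference in the result was not tested.

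The comparisons between species ask whether levels of RNAs of piRNA length from LINE families differ between the testes of related cichlids. Between AC and TM testes, 12 of the 42 families were higher in AC and 6 were lower, which is close to the background of 42.4% of all tested families (20.9% higher, 21.5% lower). The median change over the 42 families was 0.07, beside −0.02 over all families. L1 families leaned one way, with 8 of 16 higher in AC and 1 lower. Both Dong-R4 families and 1 of 2 Penelope families were also higher. Without TM replicate 2, the calls of L1-3, L1-7, L1-10 and L1-12 were lost, though their changes kept their direction. With all 4 gonad groups in 1 fit, those of L1-3, L1-7, L1-10, Dong-R4-2 and Penelope-2 were lost. Over all tested families, the total called was 194 and 163 in these fits, beside 235. With TM replicates 1 and 3 averaged, 10 were higher and 4 lower, beside 84 and 94 of all 554 tested families. AC testes enter this comparison as well as that with MZ, so the values of both are given side by side and not set against each other.

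The clearest TM difference was in L1-13. It measured 11.79, 11.60, 11.63 and 11.63 in AC testes, 11.75 and 11.83 in MZ testes and 11.001, 11.02, 10.99 and 11.08 in TM testes. All 4 TM libraries lay below all others, and the change in AC minus TM was 0.64 ± 0.05 (SE, adjusted p = 3.75e-05). L1-9 showed a similar order, with 12.32, 12.29, 12.34 and 12.26 in AC testes, 12.19 and 12.46 in MZ testes and 11.49, 11.62, 11.46 and 11.98 in TM testes (AC minus TM 0.67 ± 0.10, adjusted p = 0.00116). Within TM, replicate 4 was the highest, yet still under every AC library. Rex-Babar-14 was higher in AC than in TM, at 11.45, 11.35, 11.47 and 11.60 against 11.12, 11.03, 11.09 and 11.003 (0.41 ± 0.06, adjusted p = 0.000839).

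In the other direction, L1-16 measured 10.996, 11.04, 11.04 and 10.85 in AC testes and 11.58, 11.64, 11.57 and 11.53 in TM testes (−0.60 ± 0.06, adjusted p = 5.51e-05). MZ testes, at 11.59 and 11.69, lay with TM. Proto2-1 was lower in AC than in TM, at 10.04, 9.83, 10.09 and 9.79 against 10.41, 10.32, 10.34 and 10.17 (−0.37 ± 0.08, adjusted p = 0.00759). L1-Tx1-4 was lower in AC too, at 11.25, 10.86, 11.04 and 11.10 against 11.48, 11.39, 11.46 and 11.29 (−0.34 ± 0.08, adjusted p = 0.00983). The 2 L1-Tx1 families that differed between the AC gonads did not pass this test, with changes of 0.12 for L1-Tx1-1 and 0.19 for L1-Tx1-2.

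Smaller differences were frequent. Dong-R4-1 and Dong-R4-2 were higher in AC than in TM by 0.20 and 0.13, and Penelope-2 by 0.15. Rex-Babar-17 was lower in AC, at 11.87, 11.85, 11.93 and 11.73 against 12.13, 12.05, 12.14 and 12.11 (−0.26 ± 0.05, adjusted p = 0.00369), and RTE-BovB-4 was lower by 0.22 ± 0.07 (adjusted p = 0.0293). RTE-BovB-3 measured 12.91 to 12.95 in TM and 12.82 to 12.96 in AC testes and did not differ beyond this spread (−0.01 ± 0.04). The calls for Dong-R4-2, L1-3, RTE-BovB-4 and Rex-Babar-4 were lost when TM replicates 1 and 3 were averaged.

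Between AC and MZ testes, 2 families were higher in AC and 3 were lower, 5 of 42 beside a background of 16.2% (7.22% higher, 9.03% lower). The median change over the 42 families was 0.03, beside −0.02 over all families. RTE-BovB-1 measured 11.11, 10.85, 10.96 and 11.04 in AC testes and 10.53 and 10.45 in MZ testes (0.50 ± 0.10, adjusted p = 0.0207). RTE-BovB-4 went the other way, at 11.05, 10.82, 10.88 and 11.06 in AC and 11.35 and 11.51 in MZ (−0.48 ± 0.10, adjusted p = 0.0267). 2 families of the same superfamily thus differed in opposite directions, and the third, RTE-BovB-3, had 12.95 and 12.80 in MZ against 12.82 to 12.96 in AC and did not pass the test.

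L1-16 was lower in AC than in MZ by 0.66 on the log2 scale (SE 0.09, adjusted p = 0.0104). L1-18 measured 11.45, 11.35, 11.53 and 11.49 in AC and 11.84 and 11.89 in MZ (−0.41 ± 0.08, adjusted p = 0.0207). Penelope-1 was higher in AC, at 12.35, 12.38, 12.43 and 12.30 against 12.09 and 11.99 (0.32 ± 0.08, adjusted p = 0.0314). Proto2-1 had 10.14 and 10.60 in MZ, both above every AC library, but did not pass the test (−0.43 ± 0.15, adjusted p = 0.087). With 2 MZ libraries these calls are fragile. Without AC testes replicate 1, 1 of the 5 was left, while the total over all 554 tested families fell from 90 to 22. Leaving out an MZ replicate leaves 1 MZ library, with no spread of its own. With each library left out in turn, the 5 changes kept their direction, with L1-16 between −0.71 and −0.61. Per 24 to 35 nucleotide read, 33 families were higher in AC and 1 lower, beside 56.7 and 1.62% of all tested families, and the median of all families rose by 0.37. TE reads were 32.3 to 33.5% of these reads in AC testes and 25.9 to 26.7% in MZ testes, and their part in this count was not tested.

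**Figure D4:**
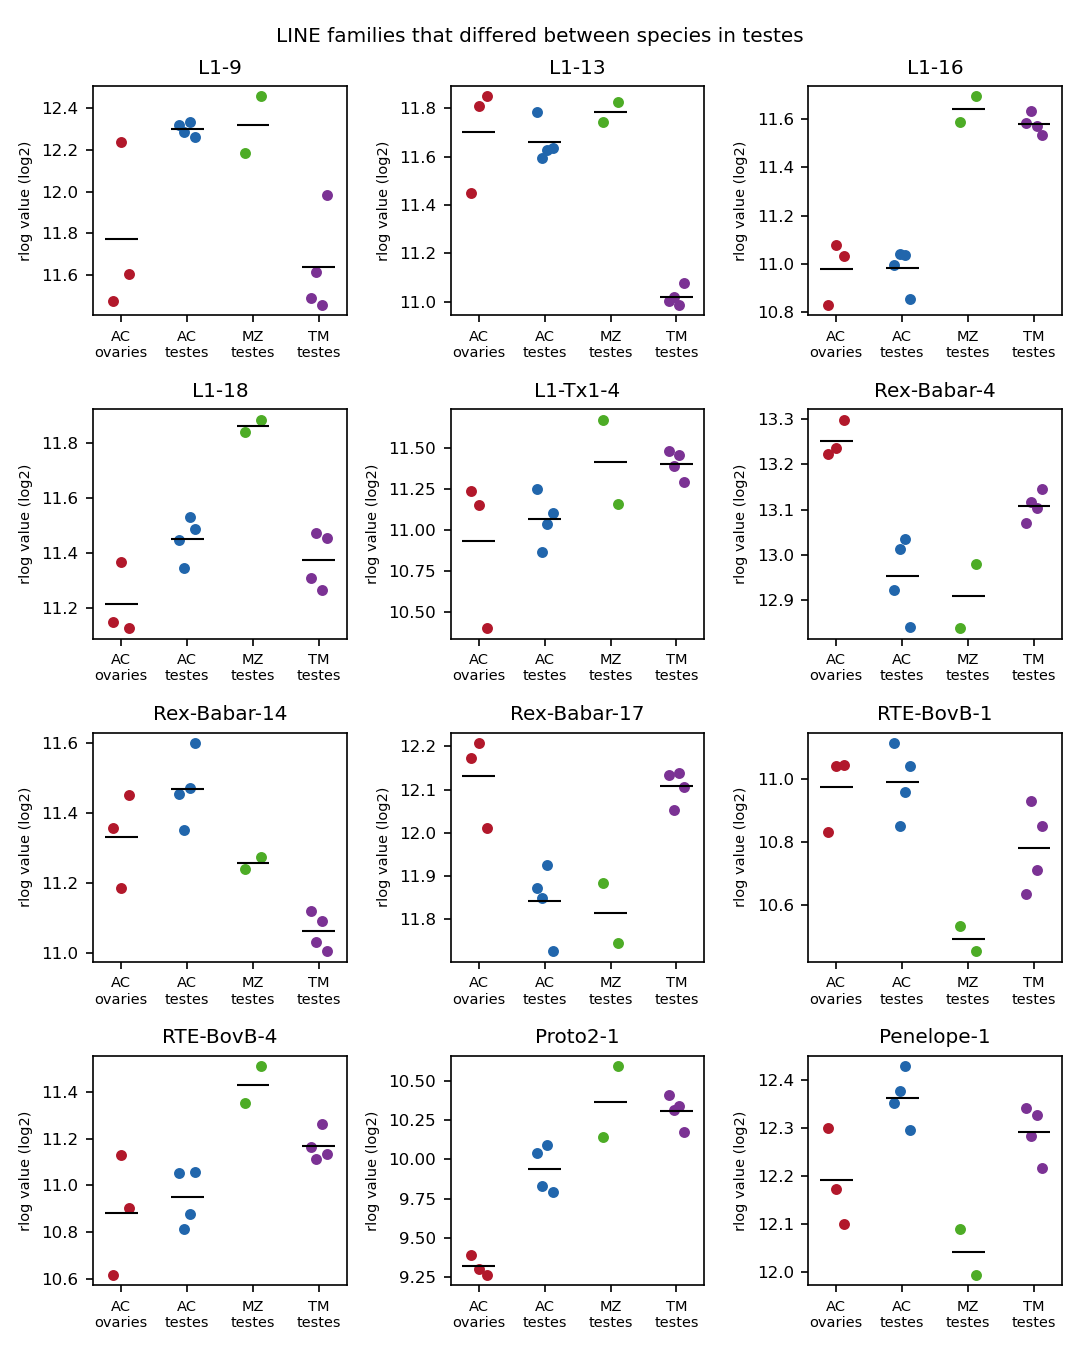
Each panel plots, for a family with 1 of the 3 largest called changes in a comparison of species, the rlog value (log2, vertical axis with its own range) in every gonad library (points) of the 4 groups, with the mean as a line. TM testes lie between 10.99 and 11.08 for L1-13, below all other libraries, and AC testes lie between 10.85 and 11.04 for L1-16, below the testes of both other species.

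Between TM and MZ testes, 3 families were higher in TM and 6 were lower, 9 of 42 beside a background of 23.3% (10.5% higher, 12.8% lower). The median change was 0.00 over the 42 families and 0.02 over all families. L1-13 was lower in TM by 0.76 ± 0.06 (adjusted p = 0.000396) and L1-9 by 0.69 ± 0.15 (adjusted p = 0.0184), from the values given above. L1-18 measured 11.31, 11.47, 11.26 and 11.45 in TM against 11.84 and 11.89 in MZ, a change of −0.49 ± 0.07 (adjusted p = 0.00476), so that MZ was above both other species. L1-8, RTE-BovB-4 and Rex-Babar-14 were lower in TM by 0.31, 0.26 and 0.20.

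Rex-Babar-17, Penelope-1 and Rex-Babar-4 were higher in TM than in MZ. Rex-Babar-17 had 11.88 and 11.75 in MZ (0.29 ± 0.06, adjusted p = 0.0134), and Penelope-1 had 12.34, 12.28, 12.33 and 12.22 in TM (0.25 ± 0.06, adjusted p = 0.024). Rex-Babar-4 had 13.07, 13.12, 13.10 and 13.14 in TM against 12.84 and 12.98 in MZ (0.20 ± 0.06, adjusted p = 0.0427). With TM replicates 1 and 3 averaged, only Rex-Babar-17 of these stayed called, and L1-8, L1-9, L1-13 and L1-18 among the lower ones. The total of 9 fell to 5 without TM replicate 1 and to 4 without TM replicate 2 or 3. Over all 554 tested families, the total fell from 129 to 66, 66 and 62 in these fits. It fell to 63 with TM replicates 1 and 3 averaged. Fits without an MZ replicate hold 1 MZ library, with no spread of its own, so their calls are not given. With each library left out in turn, the 9 changes kept their direction, with L1-9 between −0.82 and −0.55.

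Across the 4 gonad groups, L1-13, L1-16 and L1-18 thus differed between species in testes while their levels in AC testes and AC ovaries did not pass the test, with changes of −0.04, 0.00 and 0.24. The opposite held for L1-14, which was lower in AC testes than in AC ovaries and whose testis means were 11.99 in AC, 12.09 in MZ and 12.04 in TM, with no call between species. L1-Tx1-2 and L1-Tx1-1 had testis means of 13.02 to 13.23 and 12.24 to 12.39 in the 3 species, above the AC ovary means of 12.22 and 11.56. Whether these patterns differ between families was not tested.

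The study lists some LINE families as polymorphic among AC genomes. Of these, Rex-Babar-2, Rex-Babar-4, Rex-Babar-6, Rex-Babar-11, Rex-Babar-16, Rex-Babar-18 and RTE-BovB-3 are in the table, and Rex-Babar-1 is not analysed here. No LINE is among the superfamilies in which the study compares families that probably moved recently with inactive ones. The 6 listed Rex-Babar families had a median level of 12.02 in AC testes (range 11.34 to 12.95), and the 9 others had 11.64 (range 11.09 to 12.62). In AC ovaries the medians were 12.05 and 11.74. The ranges overlapped widely, and levels between families are not corrected for copy number. Of the 6, Rex-Babar-18 was higher and Rex-Babar-4 lower in AC testes than in AC ovaries. Rex-Babar-2, Rex-Babar-6, Rex-Babar-11 and Rex-Babar-16 did not pass the test, with changes of −0.17, −0.12, −0.04 and 0.09.

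Muscle, a tissue without germ cells, had another LINE profile, from a single library with no replicate check. Its 42 families together held about 1894 reads, between 4 for Proto2-1 and 347 for L1-3, so that rlog values of rare families are drawn towards their means over the table. On the deposited scale, 18 of the 42 families lay above all 7 AC gonad libraries and 11 below, while over all families 29.6% lay above and 31.1% below. Rex-Babar accounted for 12 of the 18 (12 of its 15 families), with both Dong-R4 families, both Penelope families, RTE-BovB-3 and L1-3. The margins differed widely. Rex-Babar-2 and Rex-Babar-8 were at 14.51 and 14.42, beside at most 12.60 and 12.66 in the AC gonads. Rex-Babar-13, Rex-Babar-4 and Rex-Babar-6 were at 11.98, 13.34 and 11.87, beside at most 11.95, 13.30 and 11.79. These small margins rest on about 20, 51 and 19 muscle reads. L1 accounted for 9 of the 11 families below, with Rex-Babar-14 and RTE-BovB-1.

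RTE-BovB-3 had the largest difference from the gonads. It was at 15.64 in muscle against 12.69 to 13.05 in AC ovaries and 12.82 to 12.96 in AC testes, 2.73 above the mean of both gonad groups, from about 253 reads. Rex-Babar-2 followed, at 14.51 against 12.01 to 12.60 in the gonads (2.36 higher, about 115 reads). Dong-R4-2 was at 13.70 against 11.20 to 11.67 (2.29 higher, about 66 reads) and Dong-R4-1 at 14.03 against 11.61 to 11.91. Penelope-1 and Penelope-2 were at 13.92 and 14.56, 1.65 and 2.05 above the gonads, and L1-3 was at 16.09.

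At the other end, L1-9 was at 10.91 in muscle, 1.12 below the gonad mean, L1-13 at 10.59 (1.09 lower) and L1-14 at 11.27 (1.03 lower). These values rest on about 10, 8 and 12 reads. L1-Tx1-2, at 12.21, was 1.01 below AC testes and level with AC ovaries. Proto2-1 lay at 9.78, between ovaries and testes. All L1 families other than L1-3 were below the mean of AC testes, and 12 of the 16 were below that of AC ovaries, L1-3, L1-10, L1-18 and L1-7 being above it. All Rex-Babar families other than Rex-Babar-14, Rex-Babar-18 and Rex-Babar-7 were above every gonad library.

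The balance between the superfamilies within a library is the same under any scaling of the whole library. The median over Rex-Babar families minus that over L1 families was 1.75 in muscle, and between −0.36 and 0.23 in the 13 gonad libraries. Shares of the summed TE values also depend on NA-DNA-22, which took 37.6% of that sum in muscle and at most 24.4% in the gonads. Dong-R4 and Penelope held 1.12 and 1.48% of the TE values in muscle against at most 0.495 and 0.883% in any gonad library, and L1-Tx1 held 0.383% against at least 0.531%. RTE-BovB held 2.02% against at most 0.937%, of which RTE-BovB-3 alone held 1.90%, while RTE-BovB-1 and RTE-BovB-4 held 0.060% each in muscle against means of 0.114 to 0.157% in the AC gonads. Whether muscle lies above or below the gonads does depend on the scale. Set against all 24 to 35 nucleotide reads, all 42 families were lower in muscle, as were 100% of all families, with median differences of −4.98 from ovaries and −6.58 from testes on the log2 scale beside −5.14 and −6.49 over all families. Set against the sum of the TE values, muscle was below ovaries in 28 of the 42 families and below testes in 29, beside 78.6 and 88.5% of all families. On this scale RTE-BovB-3, L1-3, the Dong-R4 and the Penelope families were above both and 7 of 15 Rex-Babar families were above testes. The table holds no read sequences, so piRNAs and other RNAs of this length were not told apart here. The study used muscle as a somatic control. It reports that muscle lacked a prominent group of small RNAs of this length bearing piRNA signatures. According to the study, TE reads of muscle also lacked the sequence biases typical of piRNAs.

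**Figure D5:**
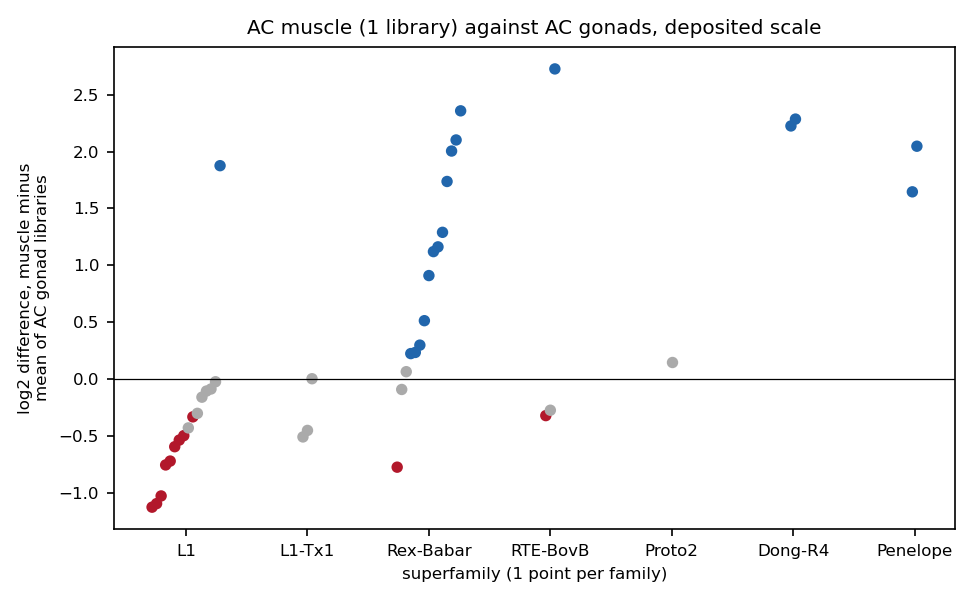
Each point is 1 LINE family, plotted by superfamily (horizontal axis) against the log2 difference of the muscle library from the mean of the AC gonad libraries (mean of the ovary mean and the testis mean) on the deposited scale; blue and red points lie above and below all 7 gonad libraries, grey points between them. RTE-BovB-3 reaches 2.73, 12 of 15 Rex-Babar points are blue, and 9 of 16 L1 points are red.

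L2, the LINE lineage left out of the list, was measured in the same libraries. In AC testes against AC ovaries, 4 of its 28 families were higher and 5 lower, and the median change was −0.01. In muscle, 8 of 28 L2 families lay above all AC gonad libraries and 11 below. The counts are descriptions, and no difference between L2 and the other LINEs was tested.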

How the data were processed

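Small RNA libraries were analysed for LINE families in the 14 libraries of the curated table, out of 31 in the series. Per the labels and the methods, the authors trimmed reads with cutadapt 1.15, kept 24 to 35 nucleotides, mapped them with STAR 2.5.4b to the AC genome (fAstCal1.2) with at most 2 mismatches and up to 100 hits, of which 1 was kept, and counted them over TE families with featureCounts 1.6.0. The values the authors deposited are DESeq2 regularised log values on the log2 scale. They are no counts, so no count test was run, and reads per family are approximate. Read totals are the study's. The other 4 tables name no superfamilies and were not used. No TE sequence was analysed here.

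Families were compared with limma 3.58.1 in R 4.3.3 (mean trend, Benjamini-Hochberg adjustment over all families tested, threshold 0.05). Only the 2 groups compared entered a fit, and families averaging under 10 on the linear scale were left out. P-values measure the spread between these libraries. The fit was tested on simulated data. Tables and figures used Python 3.11.15, numpy 2.4.6, pandas 2.3.3 and matplotlib 3.10.9. Members and lists were chosen with earlier results of these data known. Families are named if their superfamily has at most 5 families, if they are among the 3 highest or are the lowest of L1 or Rex-Babar in AC testes, if they have 1 of the 3 largest called changes without overlap in a direction, if the study lists them as polymorphic, or if they are among the 3 most different in muscle in a direction. Other named families passed a test and were chosen after their values were seen. Alternatives were other scalings, filters (none, 100), a pseudocount of 10, no mean trend, 1 fit of all gonads, a replicate block, each library left out, TM replicates 1 and 3 averaged, and means over families. No batch is given.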

Additional observations from a re-analysis of the deposited data

Results flagged for a closer look

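Among the 4 AC testes and the 4 TM testes, the highest or lowest library of each of the 42 families was set against the other 3, which makes 84 groups. 5 of them had 1 library far from the others, where chance flags about 1 in 20 groups (4.2 here). RTE-BovB-3 was at 12.82 in AC testes replicate 4, below the others at 12.94 to 12.96. Rex-Babar-3 was at 12.39 in the same library, below 12.68 to 12.72. Dong-R4-1 was at 11.67 in TM testes replicate 2, above 11.62 to 11.63. Rex-Babar-16 was at 12.07 in TM testes replicate 3, above 12.02. Rex-Babar-13 was at 11.70 in TM testes replicate 4, above 11.62 to 11.63. The gaps are at most 0.29 on the log2 scale. Only Rex-Babar-3 had been called between AC testes and AC ovaries. It was not called without AC testes replicate 4, nor without any other single library except AC ovaries replicate 3. Dong-R4-1 had been called between AC and TM testes and stayed called without TM testes replicate 2.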

How the results depend on the processing

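Filters on low values, a pseudocount of 10 and the fit without a mean trend kept every count of called families within 1.5 times, and no called family changed sign under them. Scaling changed most. Between AC testes and AC ovaries, scaling to all 24 to 35 nucleotide reads gave 28 higher and 0 lower (median change 1.38), scaling to the TE sum 29 and 0 (0.40), and the same sum without NA-DNA-22, added after the data were seen, 3 lower (0.13). Between AC and MZ testes the first gave 33 and 1 (0.42) and the second 7 and 3 (0.10). Over all 554 families these were 314 and 9, and 67 and 34. Between TM and MZ testes they gave 30 and 2 (0.35) and 5 and 4 (0.03), beside 377 and 14, and 76 and 57. Between AC and TM testes they gave 11 and 4 (0.11) and 17 and 4 (0.10), beside 117 and 90, and 134 and 105. Scaled to all reads, called families that changed sign were, in AC testes minus ovaries, L1-14 (0.76), L1-3 (0.96), Rex-Babar-17 (1.07), Rex-Babar-3 (1.07), Rex-Babar-4 (1.06) and Rex-Babar-8 (0.93), and in TM minus MZ testes L1-8 (0.043), RTE-BovB-4 (0.088) and Rex-Babar-14 (0.16); scaled to the TE sum, Rex-Babar-17 (0.090), Rex-Babar-3 (0.084) and Rex-Babar-4 (0.079) did, and none of these passed the test. The median difference of muscle was −4.98 from ovaries and −6.58 from testes per read, −0.57 and −1.18 per TE sum, and −0.19 and −0.52 without NA-DNA-22.

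With all 4 gonad groups in 1 fit, 7 families were higher and 3 lower in AC than in TM testes. In AC against MZ the counts were 6 and 4, and in TM against MZ 2 and 3. Over all 554 families they were 81 and 82, 66 and 67, and 24 and 36. With TM replicates 1 and 3 averaged, 1 was higher in TM than in MZ and 4 lower, beside 23 and 40 of all families. Deviations of same-numbered libraries correlated at −0.10 to −0.05 between AC testes and ovaries and 0.02 to 0.18 between AC and TM. They correlated at −0.11 and −0.08 between AC and MZ, and −0.36 and −0.21 between TM and MZ. With so few libraries per group, these values cannot decide whether replicate numbers pair the libraries. With the replicate number as a block, 8 families were higher and 3 lower in AC testes than in ovaries. The counts were 12 and 6 between AC and TM, 0 and 2 between AC and MZ, and 0 and 2 between TM and MZ. Over all 554 families they were, in this order, 87 and 95, 118 and 124, 15 and 33, and 5 and 16.

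Leaving out each library gave 7 to 10 higher and 3 to 7 lower in AC testes against ovaries (median change 0.01 to 0.06). Between AC and TM it gave 8 to 13 and 4 to 6 (0.06 to 0.08). Leaving out each AC library gave 0 to 2 and 1 to 3 between AC and MZ. Over all families 22 to 57 were then called, beside 90 with every library. Leaving out each TM library gave 0 to 3 and 3 to 4 between TM and MZ. Over all families 62 to 106 were then called, beside 129. Without an MZ library, 1 MZ library is left, and only the change is given. With each library left out, the median change was −0.0067 to 0.10 between AC and MZ and −0.01 to 0.03 between TM and MZ. The 3 lower families in AC testes against ovaries were left without AC testes replicate 1. Over all tested families, the total called was 181 to 230 in AC testes against ovaries, beside 233 with every library. Between AC and TM it was 177 to 239, beside 235.

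As means over families in place of medians, L1 was at 12.03 in AC testes and 11.59 in muscle, and L1-Tx1 at 12.22 and 11.58. Rex-Babar was at 11.94 in AC ovaries, 11.86, 11.80 and 11.87 in AC, MZ and TM testes and 12.78 in muscle. RTE-BovB was at 11.59 in AC ovaries, 11.62, 11.60 and 11.63 in these testes and 12.32 in muscle. Summed shares are another quantity and stand with the levels. Depth limits the muscle values most.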
